A study of Mus musculus with 2 samples.

Results

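The 10 genes described here encode neutrophil proteins of the primary granules, of the secondary granules made after them, and of the cytosol. They were taken as all probe sets whose only gene symbol in the platform annotation was Mpo, Elane, Prtn3 or Ctsg (primary granule), Ltf, Camp, Ngp or Lcn2 (secondary granule), or S100a8 or S100a9 (cytosol). Each gene had 1 such probe set, so they make up 10 of the 20380 probe sets with a single gene symbol and 10 of the 12393 named genes. The data are 2 arrays of total RNA from mouse bone, 1 of an allograft and 1 of an autograft, both labelled as femur of the c57Bl/6 strain. An autograft puts an animal's own tissue back into it, whereas an allograft comes from another animal of the same species. The labels do not say whether the strain was donor or recipient, how long after grafting the bone was taken, or how many animals a sample holds. Since each graft type was measured once, the differences below come with no replicate error and were not tested.

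A neutrophil fills its granules in sequence while it matures in the marrow. At the promyelocyte stage it makes the primary, or azurophil, granules, which hold myeloperoxidase and serine proteases. At the myelocyte and metamyelocyte stages it makes the secondary, or specific, granules, which hold lactoferrin, lipocalin 2 and the precursors of antimicrobial peptides. The calcium-binding proteins S100A8 and S100A9 form a complex that fills the cytosol of the mature cell. The messenger RNA for each granule set is made mainly at its own stage, so the granule sets are used to tell early from late granulocytic cells. Transcription of these genes is known to use PU.1, the C/EBP family and, at the early stage, Myb.

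All 10 genes read higher on the allograft array than on the autograft array. Of the 7101 named genes that could be measured on both, 41.4% did so. The share was 54.4% in the brightest 5 of 20 intensity bins, where the members lie. In the brightest bin, which holds Lcn2, Ngp, Camp and S100a8, it was 81.7%. The difference was larger for the primary granule genes, with a median log2 ratio of allograft over autograft of 0.70, than for the secondary granule genes at 0.36 and the cytosolic genes at 0.26. None of the 10 reached a 2-fold difference, and 3 of them, Mpo, Ctsg and Prtn3, reached 1.5-fold, against 4.1% of the 7101 genes. The values of the later stages depended on the scaling: the secondary granule median was 0.14 with the trend of the ratio on intensity subtracted and 0.10 with quantile normalization, and the cytosolic median was 0.05 with each. S100a8 then read lower in allograft bone, so that 9 of 10 genes read higher, while the primary granule median was 0.71 and 0.69 under these settings.

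The sequences before the start of 7 of these genes are shown, with matches to patterns that were picked with the results known. The sequences are the 250 bases before the transcription start from RefSeq (build GRCm38.p6), written 5′ to 3′ on the strand of the gene. All 10 members were matched in the promoter table by gene identifier. Capitals mark each match, on either strand, to GAGGAAG, the core bound by PU.1, or to TTNNGNAA, a relaxed form of the site bound by C/EBP proteins. On the reverse strand GAGGAAG reads CTTCCTC. Not printed are Lcn2, which held both patterns, Camp, which held neither, and S100a9, which held TTNNGNAA alone. No 2 matches to these patterns overlapped in the printed sequences. The first 4 belong to the primary granule genes, at chr11:87793534-87793783 (plus strand) for Mpo, chr10:79886062-79886311 (plus) for Elane, chr10:79879417-79879666 (plus) for Prtn3 and chr14:56102575-56102824 (minus) for Ctsg. Ltf and Ngp of the secondary granule follow, at chr9:111019042-111019291 (plus) and chr9:110419558-110419807 (plus), and then S100a8 at chr3:90668821-90669070 (plus).
Mpo: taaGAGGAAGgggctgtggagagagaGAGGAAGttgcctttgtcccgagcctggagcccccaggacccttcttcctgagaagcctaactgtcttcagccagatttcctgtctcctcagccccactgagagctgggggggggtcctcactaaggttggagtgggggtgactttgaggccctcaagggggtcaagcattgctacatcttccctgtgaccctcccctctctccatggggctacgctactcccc
Elane: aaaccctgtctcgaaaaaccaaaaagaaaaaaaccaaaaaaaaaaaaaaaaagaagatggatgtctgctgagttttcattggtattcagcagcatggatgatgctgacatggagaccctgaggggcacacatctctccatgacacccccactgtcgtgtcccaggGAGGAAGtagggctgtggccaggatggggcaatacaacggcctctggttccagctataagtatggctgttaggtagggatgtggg
Prtn3: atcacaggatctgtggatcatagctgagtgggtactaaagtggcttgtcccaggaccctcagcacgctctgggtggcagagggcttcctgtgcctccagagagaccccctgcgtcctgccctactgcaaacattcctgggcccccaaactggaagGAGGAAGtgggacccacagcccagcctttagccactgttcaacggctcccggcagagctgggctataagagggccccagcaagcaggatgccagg
Ctsg: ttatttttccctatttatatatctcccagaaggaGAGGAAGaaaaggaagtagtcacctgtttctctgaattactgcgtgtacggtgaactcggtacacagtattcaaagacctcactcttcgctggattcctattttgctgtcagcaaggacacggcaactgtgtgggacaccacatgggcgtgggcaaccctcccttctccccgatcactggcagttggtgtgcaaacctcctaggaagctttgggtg
Ltf: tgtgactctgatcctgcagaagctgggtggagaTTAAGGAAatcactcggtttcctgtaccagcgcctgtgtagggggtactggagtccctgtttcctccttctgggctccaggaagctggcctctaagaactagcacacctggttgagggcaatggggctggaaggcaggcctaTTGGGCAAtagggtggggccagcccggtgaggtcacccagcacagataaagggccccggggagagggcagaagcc
Ngp: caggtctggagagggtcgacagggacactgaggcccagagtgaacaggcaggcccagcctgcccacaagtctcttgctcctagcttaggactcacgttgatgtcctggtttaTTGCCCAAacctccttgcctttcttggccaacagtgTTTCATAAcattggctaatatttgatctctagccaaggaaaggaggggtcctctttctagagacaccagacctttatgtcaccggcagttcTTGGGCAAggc
S100a8: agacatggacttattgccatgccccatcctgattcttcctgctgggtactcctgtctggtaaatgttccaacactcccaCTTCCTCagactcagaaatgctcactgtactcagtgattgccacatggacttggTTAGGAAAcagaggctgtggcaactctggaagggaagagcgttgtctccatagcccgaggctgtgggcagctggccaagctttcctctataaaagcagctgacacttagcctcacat

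GAGGAAG was found before all 4 primary granule genes, before 1 of 4 secondary granule genes (Lcn2) and before 1 of 2 cytosolic genes (S100a8). Of the 32851 promoters in the table, 10.6% held it in the same window. In the primary granule genes every match lay on the strand of the gene, and in Lcn2 and S100a8 it lay on the other strand. The match began 85 bases before the start in Elane and 95 bases before it in Prtn3, whereas it lay 216 bases away in Ctsg and 224 and 247 bases away in Mpo. TTNNGNAA was found before 0 of 4 primary granule genes, 3 of 4 secondary granule genes (Ltf, Ngp and Lcn2) and 2 of 2 cytosolic genes, against 36.8% of all promoters. The count depends on how the pattern is written, since TTNNGNAA fixes T as its second letter. In Elane tggggcaa differs by 1 base from the TTGGGCAA marked in Ltf and was not counted. Camp, which encodes the precursor of the cathelicidin peptide, held neither pattern.

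A further 2 patterns were searched, also on both strands. AACNG, the core bound by Myb, was found before all 10 genes, and 74.2% of all promoters hold it. TATAA was found before 3 primary granule genes, 0 secondary granule genes and 1 cytosolic gene, against 22.8% of all promoters. It began 31 bases before the start in Elane, 32 in Prtn3 and 30 in S100a8, and 236 in Ctsg. Matches to different patterns can overlap, as those to AACNG and TTNNGNAA do in S100a8. The patterns were picked with the results known, a match is a description and not a bound site, and a window without a match says only that these letters are not in it.

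**Figure D1:**
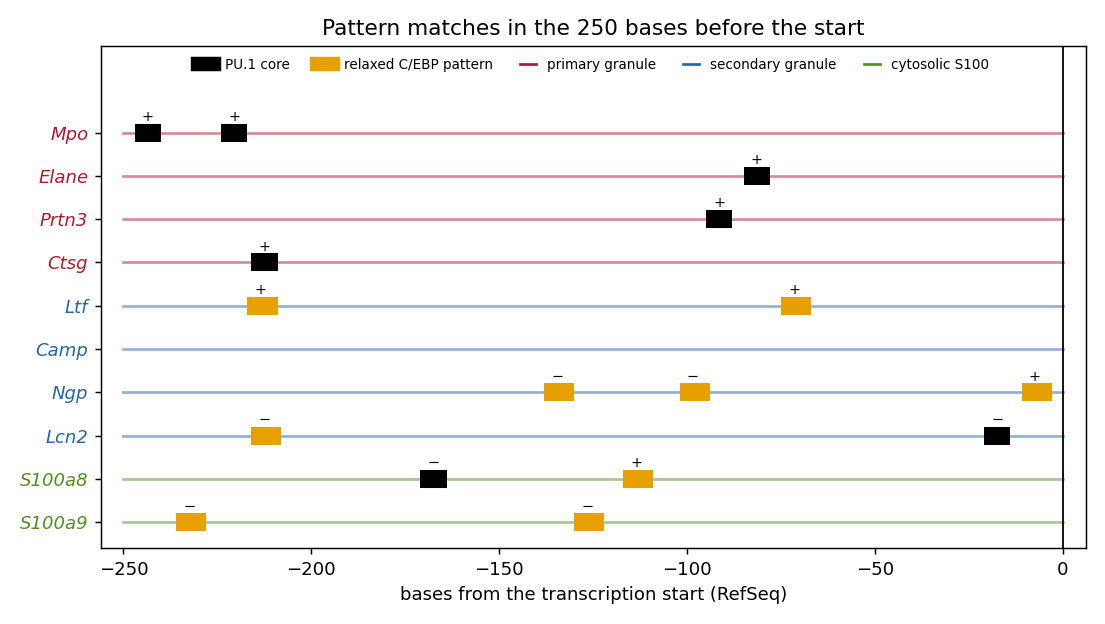
Positions of matches to the PU.1 core (black) and the relaxed C/EBP pattern (orange) in the 250 bases before the start of each gene, in bases from the transcription start, with + and − for the strand relative to the gene. All 4 primary granule genes (red lines) carry the PU.1 core and none carries the relaxed C/EBP pattern. Ltf, Ngp, Lcn2 (blue lines), S100a8 and S100a9 (green lines) carry the relaxed C/EBP pattern, and Camp carries neither. Lcn2 and S100a8 also carry the PU.1 core, on the other strand.

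The values are deposited intensities on a linear scale. They had been scaled before deposit, with a 2% trimmed mean of 500.2 for the allograft and 500.1 for the autograft array. Values under 175.2, the median of all non-control intensities, were treated as at a floor, and all 10 genes were far above it. The markers of the tissue were present: of the genes with a probe set, 7 of 7 bone genes and 7 of 8 erythroid genes exceeded the floor on both arrays, against 0 of 5 T cell genes. The remaining erythroid gene, Epb42, exceeded it in allograft bone alone. Across the 7101 named genes above the floor on both arrays the median log2 ratio was -0.07, and 41.4% had a ratio above 0. Bright probe sets read relatively higher on the allograft array: the median was 0.27 in the brightest of 20 intensity bins, where 81.7% of genes were above 0, and 15 hybridisation controls had a median of 0.31. The beta-actin control probe sets gave a 3′ over 5′ ratio, a sign of RNA quality, of 1.77 for allograft and 1.19 for autograft bone. The Gapdh controls gave 0.194 for allograft bone and 0.0349 for autograft bone. Their 3′ signal was thus far below their 5′ signal, most of all on the autograft array, and the reason was not tested. The Gapdh values were therefore not used to rank the RNA quality of the samples. The share of these array differences in the values below was not tested beyond the trend correction given with them.

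The primary granule genes, made first in maturation, had the highest ratios of the 3 sets. Mpo, which encodes the myeloperoxidase that makes hypochlorous acid, read 6038.5 in allograft and 3316.4 in autograft bone, 1.82-fold higher (log2 ratio 0.86). Ctsg, which encodes the serine protease cathepsin G, read 2428.7 in allograft and 1472.3 in autograft bone, 1.65-fold higher (0.72). Prtn3, which encodes proteinase 3, read 1996.7 in allograft and 1251.3 in autograft bone, 1.60-fold higher (0.67). These genes lay near the upper edge of the array as a whole: 1.51% of the 7101 genes had a higher ratio than Mpo, 2.38% a higher one than Ctsg and 2.87% a higher one than Prtn3. Elane, which encodes neutrophil elastase, stood lower, at 2849.0 in allograft and 2154.9 in autograft bone, 1.32-fold higher (0.40), and 9.24% of genes had a higher ratio. The 4 ratios thus ran from 0.40 to 0.86, and leaving out any 1 gene kept the median between 0.67 and 0.72.

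**Figure D2:**
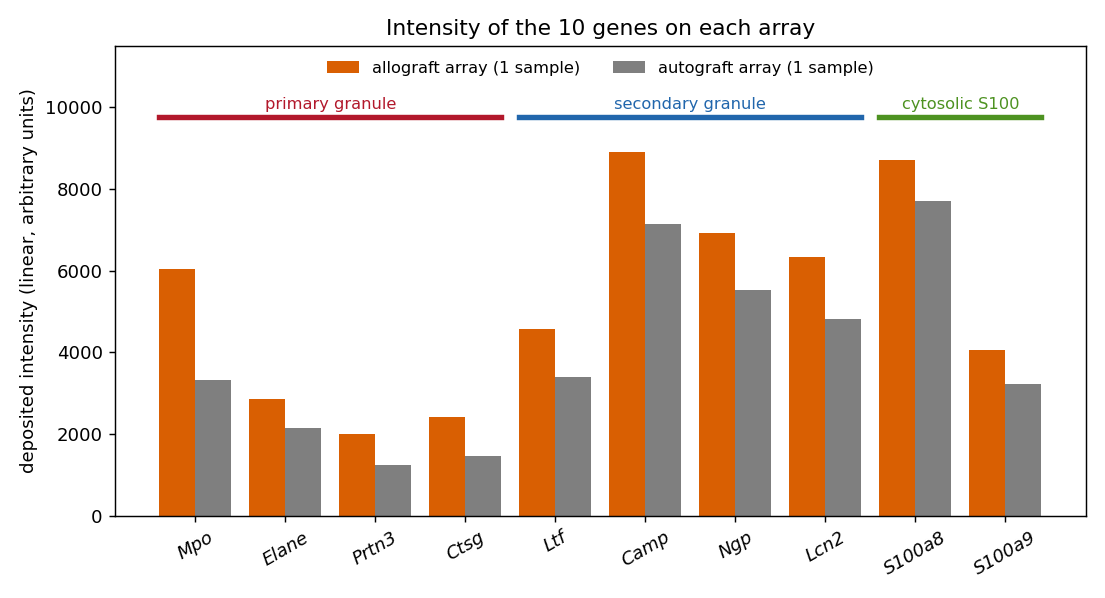
Deposited intensity (linear scale, arbitrary units) of the 10 genes on the allograft array (orange) and the autograft array (grey), 1 sample each, so no error bar can be drawn. The orange bar is the taller of the pair for every gene, by 1.82-fold for Mpo and by 1.13-fold for S100a8; heights of different genes come from different probe sets and are not comparable.

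Secondary granule genes were also higher on the allograft array, within a narrow range of ratios. Ltf, which encodes the iron-binding protein lactoferrin, read 4569.5 in allograft and 3384.3 in autograft bone (1.35-fold, log2 ratio 0.43). Lcn2, which encodes lipocalin 2, a protein that binds bacterial iron carriers, read 6326.4 in allograft and 4818.5 in autograft bone (1.31-fold, 0.39). Its probe set carries a mark for oligonucleotides shared by several transcripts. Ngp, which encodes a granule protein of the cystatin and cathelicidin family, read 6932.0 in allograft and 5526.3 in autograft bone (1.25-fold, 0.33). Camp read 8893.9 in allograft and 7132.9 in autograft bone (1.25-fold, 0.32). The 4 ratios spanned 0.32 to 0.43, and 7.89% of genes had a higher ratio than Ltf and 13.4% a higher one than Camp. The 15 hybridisation controls ran from 0.06 to 0.50, a range that holds these 4 ratios and also that of Elane (0.40). The part of the array difference in these ratios was not tested.

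The cytosolic genes were close to the secondary granule genes. S100a9 read 4050.1 in allograft and 3218.1 in autograft bone, 1.26-fold higher (log2 ratio 0.33). S100a8 read 8717.4 in allograft and 7700.3 in autograft bone, 1.13-fold higher (0.18), the lowest ratio of the 10. Both cytosolic ratios also lay within the range of the hybridisation controls, 0.06 to 0.50. S100a9 stood above Ngp and Camp and below the secondary granule median of 0.36. Without shared probe sets, which leaves out both S100a8 and Lcn2, the cytosolic value and the secondary granule median were both 0.33. Their proteins work as a pair, but their probe sets differed by more than the members of the secondary granule set did among themselves. The S100a8 probe set also carries a mark for shared oligonucleotides. With 23.4% of genes above it, S100a8 was the member closest to the middle of the array, and S100a9 had 12.6% above it.

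All 10 genes had a ratio above 0, against 41.4% of the 7101 genes, and 3 were 1.5-fold higher or more, against 4.1%. None was 1.5-fold lower or more, against 6.34% of the genes. At 2-fold 0 of 10 were higher, against 0.887%, and 0 of 10 lower, against 0.676%. Since all 10 fell into the brightest 5 of the 20 intensity bins, the background there is the closer one. Of those 1775 genes 54.4% had a ratio above 0, 5.63% reached 1.5-fold higher and 1.18% reached 2-fold higher. In the brightest bin, which holds Lcn2, Ngp, Camp and S100a8, 81.7% of genes had a ratio above 0. The genes were chosen with earlier results of these arrays known, so the counts describe them and test nothing. In bulk RNA a sample with more granulocytic cells and one with more of a transcript in each cell cannot be told apart.

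**Figure D3:**
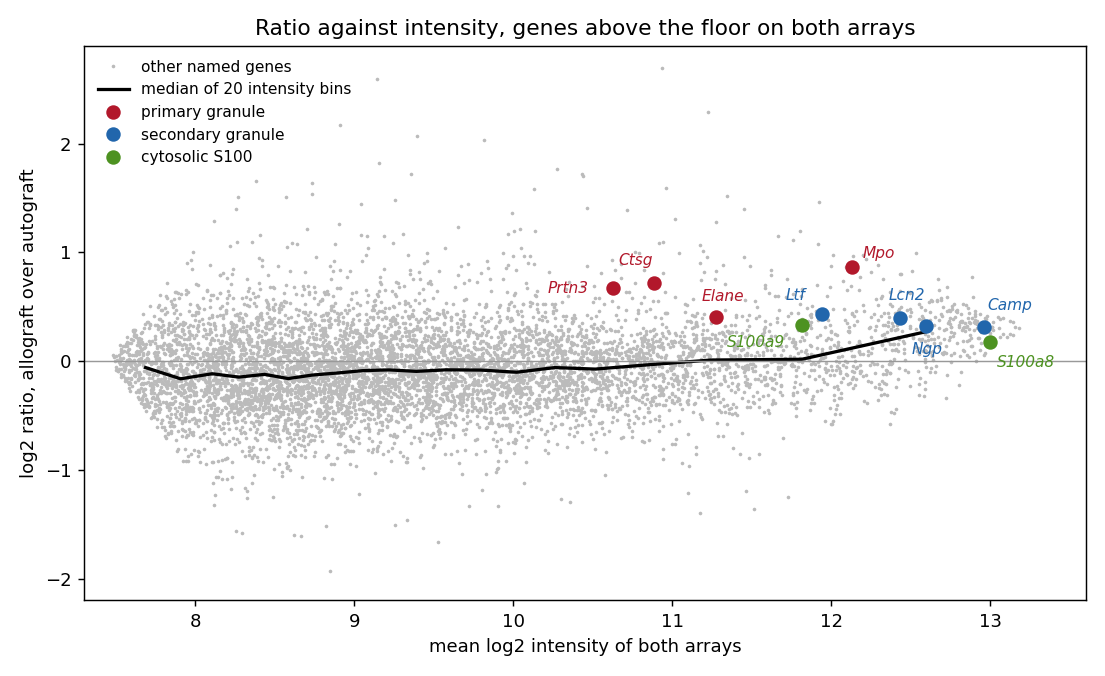
Log2 ratio of allograft over autograft against the mean log2 intensity of both arrays for the 7101 named genes above the floor on both arrays (grey), with the median of 20 intensity bins (black line) and the 10 members in colour. The line bends up to 0.27 in the brightest bin; Mpo, Ctsg and Prtn3 (red) sit well above it, while Camp, Ngp (blue) and S100a8 (green) sit close to it.

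Set against genes of like intensity, Mpo, Prtn3 and Ctsg stood apart, while the secondary granule and cytosolic genes overlapped. Mpo fell into a bin whose median was 0.02, and 10 of its 355 genes had a higher ratio than Mpo. For Prtn3 the bin median was -0.07 and 10 of 355 genes were above it, and for Ctsg they were -0.03 and 12 of 355. These primary granule genes were therefore far from the middle of their bins. Elane had 34 of 355 genes above it in its bin, Ltf had 42 and S100a9 had 68. Lcn2, Ngp, Camp and S100a8 fell into the brightest bin, where 88, 131, 136 and 222 of 355 genes, in that order, had higher ratios. For S100a8 this places the gene below the bin's median.

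A lowess fit of the ratios on intensity, with a span of 0.4, was subtracted as a correction for this bend. The stage medians kept their order. The primary granule genes then stood at 0.74 for Ctsg, 0.71 for Prtn3, 0.70 for Mpo and 0.37 for Elane, with a median of 0.71. The secondary granule genes stood at 0.30 for Ltf, 0.18 for Lcn2, 0.09 for Ngp and 0.02 for Camp, with a median of 0.14. S100a9 stood at 0.22 and S100a8 at -0.12, so the direction of S100a8 turned and 9 of 10 members stayed above 0, against 47.7% of all genes and 46.3% of those in the brightest 5 bins. The secondary granule and cytosolic medians therefore moved by more than 1.5 times under this setting, and the primary granule median did not.

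The comparison of stages is a difference of ratios and so does not set one probe set's level against another's. The primary granule median exceeded the secondary granule median by 0.34 on the log2 scale, which is a 1.26-fold difference between fold changes, and the cytosolic median by 0.44. With the trend subtracted the differences were 0.57 and 0.66. Of the 16 pairs of a primary and a secondary granule gene, the primary granule gene had the higher ratio in 15, the exception being Elane (0.40) against Ltf (0.43), and in all 16 with the trend subtracted. It was higher in 8 of 8 pairs with a cytosolic gene under both treatments. The pairs reuse the same genes on the same arrays, so they are not independent and the counts only describe the order. For single genes, the ratios of the 2 brightest probe sets of a gene differed with an SD of 0.44 over 1925 genes, and each gene here was read by 1 probe set. That spread is no error for a median over several genes, and the differences between stages have none.

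**Figure D4:**
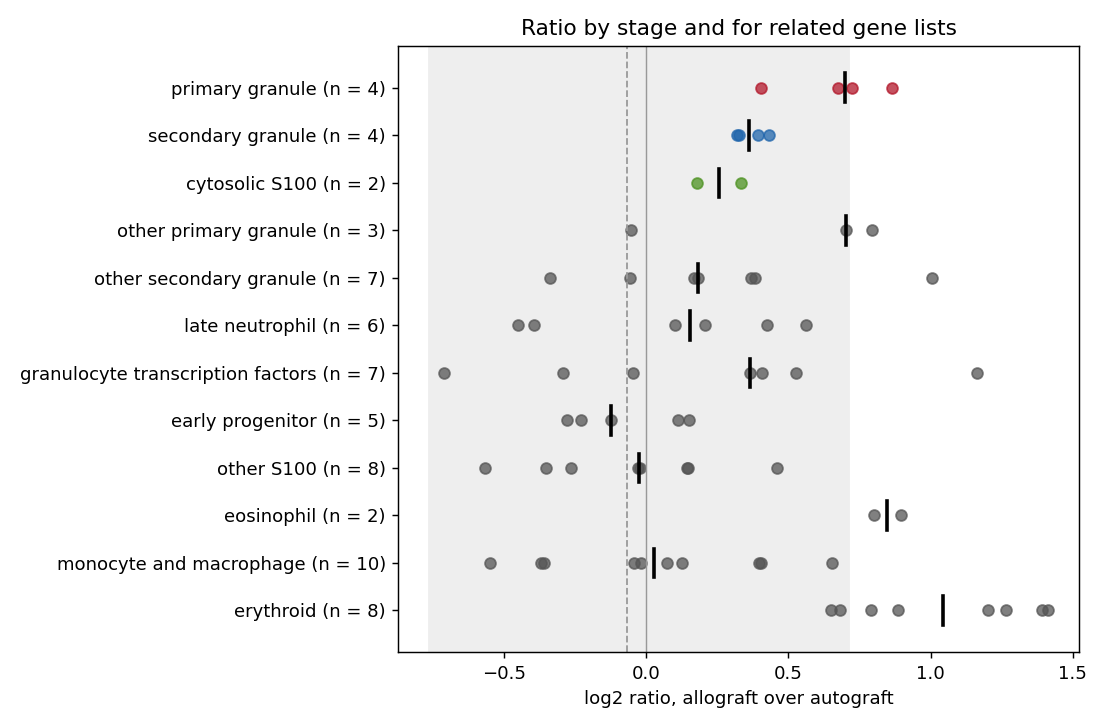
Log2 ratio of allograft over autograft for each gene (points) of the 3 stages (coloured) and of 9 related lists (grey), with the median of each list as a black bar; the shaded band holds the central 95% of the 7101 genes, from -0.76 to 0.71, and the dashed line is their median of -0.07. Listed genes above the floor on 1 array are drawn at their bound, and the stage medians step down from 0.70 to 0.36 and 0.26.

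A list of 3 further genes tied to the primary granule stage had 2 above 0 and a median of 0.70 (2 and 0.57 with the trend subtracted). Ms4a3, a membrane protein of granulocyte and monocyte progenitors and not a granule protein, read 1059.2 in allograft and 611.5 in autograft bone (log2 ratio 0.79). Srgn, the proteoglycan serglycin that packs proteases into granules, read 4906.3 in allograft and 3013.3 in autograft bone (0.70). Ctsc, the protease that activates elastase, proteinase 3 and cathepsin G, did not share the difference, at 2724.8 in allograft and 2831.3 in autograft bone (-0.06). Prss57, Cd63 and Bpi had no probe set of their own.

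The other secondary granule genes were spread more widely than the members, with 5 of 7 above 0 and a median of 0.18. With the trend subtracted the count was the same and the median rose to 0.26, whereas that of the members fell to 0.14. Hp, which encodes the hemoglobin-binding protein haptoglobin, was the only one at 2-fold, with 2468.8 in allograft and 1229.4 in autograft bone (1.01). Chil3, a chitinase-like protein, stood at 0.38, Cd177 at 0.37, the collagenase Mmp8 at 0.18 and the integrin chain Itgb2l at 0.17. On the other side were Cyba, a subunit of the NADPH oxidase, at -0.06 and Pglyrp1, a peptidoglycan-binding protein, at -0.34 (1868.4 in allograft and 2360.9 in autograft bone). Cybb, the partner of Cyba in the oxidase, was below the floor on both arrays.

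Genes of late neutrophil stages had a median of 0.15, with 4 of 6 above 0 and none at 1.5-fold. With the intensity trend subtracted, 3 of 6 were above 0 and the median was 0.05. The formyl peptide receptor Fpr2 was highest at 0.56 (809.2 in allograft and 548.6 in autograft bone), followed by Csf3r, the receptor for the granulocyte growth factor, at 0.43. Adam8 stood at 0.21, and the gelatinase Mmp9 at 0.10, with its second probe set at -0.35 and a trend-subtracted value of -0.19. The integrin chain Itgb2 stood at -0.39 and Slc11a1, a metal transporter of phagocytic vacuoles, at -0.45. The chemokine receptor Cxcr2 read 21.8 in allograft and 41.6 in autograft bone, and the integrin chain Itgam read 94.9 in allograft and 136.8 in autograft bone. Both were below the floor, as was Padi4 with 161.8 in allograft and 143.9 in autograft bone. These genes of mature neutrophils thus gave no ratio.

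Of the transcription factors that act on granule genes, Myb, which acts in progenitors, was the only one at 2-fold. It read 507.7 in allograft and 226.8 in autograft bone (log2 ratio 1.16), from a probe set marked as shared, and its other probe sets were below the floor. Cebpb stood at 0.53 and Cebpd at 0.36, while Cebpa, needed to form granulocyte precursors, stood at -0.05 (388.4 in allograft and 400.9 in autograft bone). Spi1, which encodes PU.1, was lowest at -0.71, with 529.4 in allograft and 866.3 in autograft bone. Runx1 was above the floor on the allograft array alone, at least 1.33-fold higher there, and Cbfb stood at -0.29. The list had 4 of 7 genes above 0 and a median of 0.36. Gfi1 was below the floor on both arrays, and Cebpe, the factor of the secondary granule stage, had no probe set of its own.

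Genes of earlier progenitors did not share the difference, with 2 of 5 above 0 and a median of -0.12 (-0.05 with the trend subtracted), from -0.28 for Cd34 to a bound of 0.15 for Kit. Inhibitors that hold granule proteases in check had 3 of 4 above 0 and a median of 0.27, which was 0.09 with the trend subtracted. Serpinb1a, an inhibitor of elastase, proteinase 3 and cathepsin G, was highest, with 1259.8 in allograft and 663.3 in autograft bone (0.93), but its other probe set read 248.1 in allograft and 247.4 in autograft bone. Slpi, a secreted inhibitor of elastase and cathepsin G, was lowest at -0.11. The other S100 genes had 3 of 8 above 0 and a median of -0.03 (2 of 8 and -0.14 with the trend subtracted), from S100b at -0.57 to S100a6 at 0.46. Of the receptors, Tlr4, which binds the S100A8 and S100A9 complex, stood at a bound of 0.23 with its other probe set below the floor, and the lipocalin 2 receptor Slc22a17 at -0.93 (189.7 in allograft and 360.8 in autograft bone).

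Markers of other marrow cells differed to varying degrees, and their part in the values above was not tested. Of the 5 eosinophil genes on the array, the granule protein Prg2 stood at 0.89 (2230.3 in allograft and 1199.7 in autograft bone) and the peroxidase Epx at 0.80 (862.3 in allograft and 495.1 in autograft bone), while Il5ra, Siglecf and Ccr3 were below the floor. The summed intensity of the 5 was 3202.6 in allograft and 1848.4 in autograft bone. All 8 erythroid genes were higher on the allograft array, from Alas2 at 0.65 to Hemgn at 1.41, with sums of 19102.4 in allograft and 9375.9 in autograft bone. The 12 monocyte and macrophage genes, which share early progenitors with neutrophils, summed to 23665.2 in allograft and 21722.6 in autograft bone. Their median was 0.03, with 5 of 10 above 0 (0.06 and 6 of 10 with the trend subtracted), from Cd68 at -0.55 to Csf1r at 0.65, whose other probe sets stood at -0.03 and -0.59. Cx3cr1 and Marco were below the floor.

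Of the remaining lists, those of B cell, mast cell and basophil, and bone genes had genes on both sides of 0. The 8 B cell genes summed to 3308.3 in allograft and 2914.4 in autograft bone, with 5 of 7 above 0 and a median of 0.27, from Cd79a at -0.32 to Cd79b at 0.60, and with Pax5 below the floor. Mast cell and basophil genes had 1 of 3 above 0, from Cma1 at -0.56 to Mcpt8 at 1.51, with sums of 1357.7 in allograft and 1317.9 in autograft bone and with Ms4a2, Fcer1a, Mcpt4 and Tpsb2 below the floor. Cell cycle genes, which mark dividing cells, had 6 of 6 above 0 and a median of 0.34, from Mcm5 at 0.07 to Mki67 at 0.90. With the trend subtracted these were 6 of 6 and 0.31. Bone genes had 3 of 7 above 0 and a median of -0.60, from Alpl at -1.25 to Col1a1 at 2.70. The other Col1a1 probe set read 2735.8 in allograft bone and 31.3, below the floor, in autograft bone.

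Several members lie side by side in the genome, which the choice of genes did not use. In RefSeq order Prtn3 and Elane are neighbours on chromosome 10, S100a8 and S100a9 on chromosome 3, and Ltf, Camp and Ngp share chromosome 9. The genes within 3 places of a member on either side were examined after their values were known. Of 48 such neighbours 18 were above the floor on both arrays, with 8 above 0, 10 below 0 and a median log2 ratio of -0.03. Beside Prtn3 and Elane, Ptbp1 stood at -0.36 and Med16 at -0.08. Ctsg lies between Mcpt8, a basophil protease gene, at 1.51 (519.3 in allograft and 182.2 in autograft bone) and Gzme, a granzyme gene, at 1.53 (724 in allograft and 250 in autograft bone, with a probe set marked as shared). Mpo lies next to Lpo, which encodes lactoperoxidase and was below the floor, and within 3 places of Epx at 0.80. The neighbours of Lcn2 that were above the floor ran from -0.48 for Dnm1 to -0.03 for Slc25a25.

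**Figure D5:**
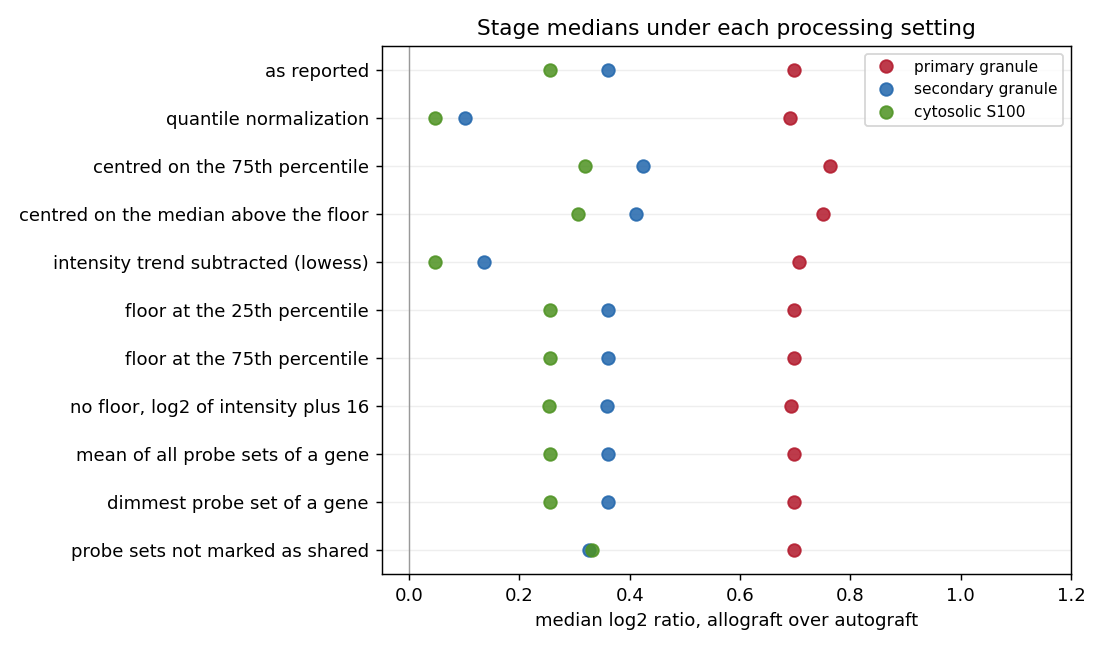
Median log2 ratio of allograft over autograft of the primary granule (red), secondary granule (blue) and cytosolic genes (green) under the reported processing and 10 other settings. The red points stay between 0.69 and 0.76, and the blue and green points drop to 0.10 and 0.05 with quantile normalization; without shared probe sets the green point is S100a9 alone and lies beside the blue one.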

How the data were processed

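Total RNA of 1 allograft and 1 autograft femur sample, grouped by title, was measured on oligonucleotide arrays. The authors deposited linear intensities for each probe set, already scaled to a common level. The software and the methods of background correction and scaling were not stated in the labels. Of 22690 probe sets, 64 controls were left out, 20380 had 1 gene symbol in the platform annotation, 691 several and 1555 none. A gene was its probe set with the highest mean intensity. Intensities under 175.2 were set to that floor, log2 was taken, and ratios are allograft minus autograft. Gene lists (133 entries, 111 with a probe set) and members were chosen with earlier results of these data known. Genes named were all members, the highest and lowest of each list and a fixed set of neutrophil and myeloid genes. Further genes of the lists and some genome neighbours are named outside that rule. With 1 array per group no test was made. Intensity bins (20) and a lowess trend used genes above the floor on both arrays. Counting, trend and quantile steps were tested on simulated data. Promoters came from RefSeq, GRCm38.p6. Tools were statsmodels 0.14.6 for lowess, pandas 2.3.3 with numpy 2.4.6, matplotlib 3.10.9 and scipy 1.17.1 under Python 3.11.15.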

Additional observations from a re-analysis of the deposited data

How the results depend on the processing

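The settings tried were quantile normalization, centring on the 75th percentile or on the median above the floor, subtraction of the intensity trend, a lower (25th percentile) and a higher floor (75th percentile), 16 added before log2 in place of a floor, a gene's mean over its probe sets or its dimmest one, and probe sets not marked as shared, which leaves out Lcn2 and S100a8. Under these 10 settings the primary granule median stayed between 0.69 and 0.76, the secondary granule median between 0.10 and 0.42 and the cytosolic median between 0.05 and 0.33. The primary minus secondary difference stayed between 0.33 and 0.59 and the primary minus cytosolic difference between 0.37 and 0.66. Quantile normalization gave 0.10 for the secondary granule and 0.05 for the cytosolic genes, and subtracting the trend gave 0.14 and 0.05. The means in place of the medians were 0.67 for the primary and 0.37 for the secondary granule genes. The direction turned for S100a8 alone, to -0.13 with quantile normalization and -0.12 with the trend subtracted; the cause was not tested. The count of members at least 1.5-fold apart was 3 and at least 2-fold apart 0 under all 10 settings. Since each member has 1 probe set, the mean and the dimmest probe set change no member's value. The other floors change none either, since every member lies above them on both arrays. Both centrings shift all members by the same amount and so cannot change a difference between stages. Those differences could move only with quantile normalization, trend subtraction, the added 16 and the removal of shared probe sets. No paired analysis was possible because each graft type had 1 array, and no replicate could be left out. Precision is limited by there being 1 array for each graft type.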
